A study of Rattus norvegicus with 16 samples.

Results

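Gene expression in the left ventricle was compared between sedentary high capacity runner (HCR) and low capacity runner (LCR) rats, 2 lines bred apart from 1 N:NIH founder stock by selecting on treadmill running capacity. The comparison used 8 of the 16 arrays of the series, chosen by their titles, with 4 sedentary HCR rats (numbered 3, 4, 5 and 6) and 4 sedentary LCR rats (numbered 2, 3, 5 and 6). All rats were labelled female, belonged to generation 16, were run on a treadmill at about 11 weeks to rank their capacity and were killed at about 7 months. The remaining 8 arrays came from trained rats of both lines, which did interval running for 8 weeks, with 5 sessions of 1.5 hours a week. The design addresses whether the hearts of rats with inherited high and low running capacity differ without training.

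Each array measured total RNA from a piece of whole left ventricle of 1 rat on an Affymetrix rat chip, whose features are probe sets, groups of short probes against 1 transcript. A value is the authors' deposited log-scale brightness of a probe set, read here as log2, and a difference is the HCR mean minus the LCR mean on that scale, so that 1 unit is a 2-fold change. Values ran from 3.24 to 14.54. Differences carry the standard error (SE) of a limma fit across all 16 arrays, and a probe set is called when its p-value, adjusted for the 31042 probe sets tested (Benjamini-Hochberg), is at or below 0.05. A gene is called when at least 1 of its probe sets is, and its values below are those of its brightest called probe set unless another is named. The fit called 1549 of the 31042 probe sets (4.99%), with HCR above LCR in 623 (2.01%) and below it in 926 (2.98%). The 8 values of a probe set did not overlap between the lines in 5666 probe sets (18.3%), and in 91.7% of those called. These calls held 1042 of 14217 named genes (7.33%), with 363 genes higher (2.55%) and 679 lower (4.78%). In whole tissue, fewer cells of a type and less RNA per cell cannot be told apart. As the lines were bred apart from each other, differences that came with selection and those that came by drift cannot be told apart either.

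The heart draws most of its ATP from oxidation of fatty acids in mitochondria, which keep a small genome and a ribosome of their own to make core subunits of the respiratory chain. Its muscle proteins are renewed by the ubiquitin-proteasome system, in which FOXO transcription factors and the glucocorticoid receptor switch on muscle ubiquitin ligases such as MuRF1, the product of Trim63, while insulin and IGF signals through PI3K and Akt restrain FOXO. Rat lines selected for intrinsic running capacity are used as a model of inherited aerobic fitness, and low capacity runners are known for a poorer metabolic and cardiovascular profile.

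Promoters of 4 called genes are printed because the genes head the results below: Retsat had the largest difference of any named gene, Amd1 differed in both sedentary and trained rats, and Trim63 and Tfb2m stand for the protein breakdown and mitochondrial transcription groups. Each sequence is the 250 bases before the RefSeq transcription start in the GRCr8 build, read 5′ to 3′ on the gene's strand. Capitals mark the following matches, found on a search of both strands: AP-1 (TGANTCA) in Retsat at 127 bases before the start, the TATA box (TATAAA) in Amd1 at 29 bases, the glucocorticoid receptor motif (GNACA and TGTNC with any 3 bases between them) and the FOXO motif (GTAAACA) 219 and 205 bases before the start of Trim63, and the FOXO motif 28 bases before the start of Tfb2m. The windows are chr4:106211209-106211458 (plus strand) for Retsat, chr20:45265983-45266232 (minus strand) for Amd1, chr5:151816986-151817235 (plus strand) for Trim63 and chr13:93828595-93828844 (minus strand) for Tfb2m.
Retsat: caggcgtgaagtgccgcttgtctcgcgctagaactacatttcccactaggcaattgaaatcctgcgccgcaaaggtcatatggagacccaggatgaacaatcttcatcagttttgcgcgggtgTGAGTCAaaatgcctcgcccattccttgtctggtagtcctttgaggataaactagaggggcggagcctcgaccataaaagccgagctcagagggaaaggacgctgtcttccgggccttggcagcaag
Amd1: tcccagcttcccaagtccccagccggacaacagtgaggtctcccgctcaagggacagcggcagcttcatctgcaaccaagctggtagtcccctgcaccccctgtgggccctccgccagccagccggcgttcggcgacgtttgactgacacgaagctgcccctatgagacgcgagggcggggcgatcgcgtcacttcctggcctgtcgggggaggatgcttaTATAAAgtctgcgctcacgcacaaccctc
Trim63: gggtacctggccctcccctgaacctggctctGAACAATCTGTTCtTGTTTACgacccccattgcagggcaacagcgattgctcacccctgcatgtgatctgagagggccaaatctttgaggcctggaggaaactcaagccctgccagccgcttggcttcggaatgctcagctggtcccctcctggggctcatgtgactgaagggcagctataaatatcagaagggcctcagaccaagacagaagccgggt
Tfb2m: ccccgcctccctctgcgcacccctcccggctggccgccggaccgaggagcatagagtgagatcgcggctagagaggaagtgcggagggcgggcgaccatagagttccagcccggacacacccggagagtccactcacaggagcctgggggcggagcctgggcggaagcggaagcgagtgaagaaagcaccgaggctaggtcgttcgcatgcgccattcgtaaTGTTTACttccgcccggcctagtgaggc
The FOXO matches in Trim63 and Tfb2m lie on the opposite strand and so read TGTTTAC. The Trim63 window also holds a TATA box (tataaa), left in lower case.

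The same motifs were counted in windows of 300 bases (250 before to 50 after the start) of the 11733 measured genes with a RefSeq promoter. The FOXO motif was present in 2.46% of all 11733 windows, in 9 of 294 genes called higher in HCR (3.06%) and in 31 of 570 called lower (5.44%). NRF-1 (GCGCA and GCGC with any 1 base between them), a motif common in promoters of mitochondrial genes, was present in 8.49% of all windows, 3.06% of those called higher and 12.8% of those called lower. ETS (CCGGAAGT) occurred in 6.84%, 2.04% and 9.65% of the same 3 sets, and the E-box (CACGTG) in 8.92%, 7.82% and 11.1%. The glucocorticoid receptor motif was rare, in 0.358% of all windows, 2 of 294 called higher (0.68%) and 2 of 570 called lower (0.351%). The TATA box occurred in 8.45% of all windows, 8.84% of those called higher and 6.14% of those called lower. The shares for AP-1 were 5.44%, 6.12% and 3.68%, and those for CRE (TGACGTCA) 2.86%, 2.04% and 2.98%. The shares are descriptions with no test, and genes called lower were also brighter than those called higher (below).

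Array-wide properties moved with the line in sedentary rats. The interquartile range of an array's values was 2.018 ± 0.0567 (SD, n = 4) in HCR and 2.173 ± 0.0262 (n = 4) in LCR with no overlap (exact permutation test, two-sided, p = 0.0286, the smallest that 4 against 4 can give; 0.0572 after adjustment over 6 properties), and the array medians of 5.931 ± 0.021 and 5.873 ± 0.0139 gave the same p-values. In trained rats both properties overlapped between the lines, the interquartile range running from 2.064 to 2.186 in HCR and 2.058 to 2.266 in LCR. The difference between 3′ and 5′ probe sets, a sign of RNA quality, was 1.185 in sedentary HCR and 1.182 in sedentary LCR for beta-actin (exact permutation p = 0.914). When probe sets were ordered by brightness into 5 groups of equal size, the median line difference went from 0.05 in the dimmest and 0.09 in the next to −0.05 and −0.11 in the brightest 2 groups. Calls followed the same order, with 73 higher and 10 lower in the dimmest group and 24 higher and 461 lower in the brightest. The middle group had 217 higher and 94 lower. Shares of all genes given beside gene groups below are not matched for brightness. Bright gene groups are thus set beside a share with fewer lower calls than bright probe sets had. After quantile normalization, which gives every array the same distribution of values, the median lay between −0.00 and 0.03 in all 5 groups and 543 probe sets (1.75%) were called, of which 476 were also called in the deposited values (87.7% of the former, 30.7% of the latter). Centring each array on its median gave 298 calls higher and 2162 lower, so the balance of directions rests on the scaling. All 1549 called probe sets kept their direction after quantile normalization, and values after that step are given beside group results. Its part in any single result was not tested.

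**Figure D1:**
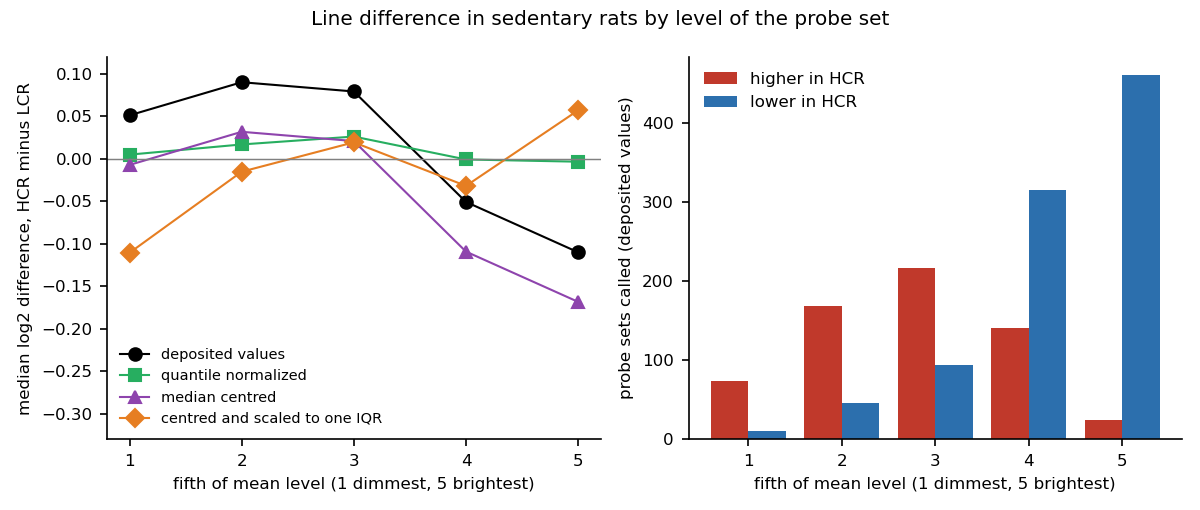
Line difference against brightness. The plot shows the median HCR minus LCR log2 difference in each of 5 equal groups of probe sets ordered by mean level, for the deposited values and 3 other scalings, and the called probe sets per group in each direction; the deposited values run from 0.05 in the dimmest group to −0.11 in the brightest, and after quantile normalization the medians stay between −0.00 and 0.03.

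The calls also rested on single rats. One library labelled female, HCR rat 5, had Xist, the RNA that silences the second X chromosome in females, at 4.54 on the brightest of 4 probe sets where the other 7 sedentary rats and all trained rats had at least 7.56. Its Y-linked genes were close to or below the other rats, with Eif2s3y at 3.53 against at most 3.50 in other sedentary rats and Uty at 6.15, lower than in every other rat. Without this rat 112 probe sets were called, 26 higher and 86 lower, and without LCR rat 6 only 35 were. Leaving out HCR rat 3, 4 or 6 gave 1891, 103 and 491 calls, and leaving out LCR rat 2, 3 or 5 gave 1445, 325 and 333. LCR rat 5 stood apart in fast skeletal muscle genes (15 genes, mean deviation 0.822 against −0.236 to −0.171 in the other LCR rats). Only 28 probe sets (0.0902%) were called in all 7 alternative analyses of the whole table and with each of the 8 sedentary arrays left out. Without HCR rat 5 17 named genes were called higher and 58 lower, and after quantile normalization 144 higher and 202 lower. Counts under these settings are given beside gene groups below and need not be of the same genes.

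**Figure D2:**
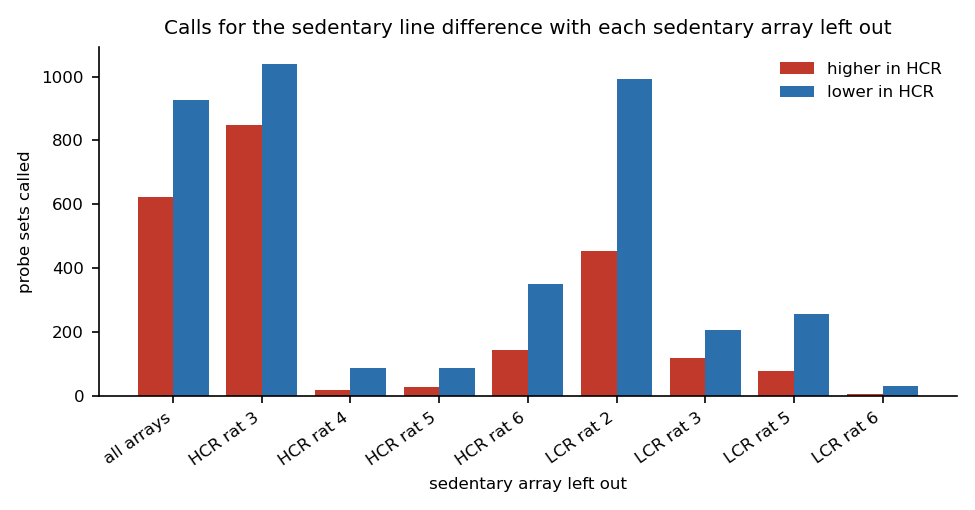
Probe sets called in the sedentary comparison when 1 array is left out. Bars start at 0 and split the calls by direction (HCR above or below LCR); the count falls from 1549 with all arrays to 112 without HCR rat 5 and 35 without LCR rat 6, and rises to 1891 without HCR rat 3.

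Retsat, which encodes retinol saturase, an enzyme that reduces a double bond of retinol, was 4.30-fold higher in HCR. Its values were 11.69, 11.51, 11.52 and 11.60 in HCR rats 3, 4, 5 and 6 and 10.35, 9.35, 8.87 and 9.33 in LCR rats 2, 3, 5 and 6, a difference of 2.11 ± 0.35 (SE; limma adjusted p = 0.0134). The HCR rats lay close together, the LCR rats were spread over more than 1 unit with rat 2 nearest to HCR, and the groups did not overlap. The gene was called without HCR rat 5 (2.13, adjusted p = 0.0386) but not without LCR rat 6. Of the other 8 measured enzymes of retinol metabolism, none was called in either direction, and the median of all 9 was 0.08.

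Baalc, a membrane-associated adaptor first described in brain and leukaemia, was higher in HCR at 6.85, 6.96, 7.75 and 7.21 against 5.88, 6.19, 5.97 and 6.28 in LCR. All 4 HCR rats exceeded all 4 LCR rats, with rat 5 the highest. The difference was 1.11 ± 0.16 (adjusted p = 0.00896), and 0.92 without HCR rat 5 (adjusted p = 0.0162). Chrna1, a subunit of the acetylcholine-gated channel of muscle, had HCR values of 5.46, 5.79, 5.60 and 5.82 and LCR values of 5.15, 4.98, 5.13 and 5.12. It was dim in every rat, and its difference of 0.57 ± 0.09 (adjusted p = 0.0134) separated the lines without overlap. Col18a1, the basement membrane collagen that gives rise to endostatin, was measured at 6.84, 6.70, 6.77 and 6.73 in HCR and 6.40, 6.09, 6.46 and 6.42 in LCR. The HCR rats were again all above the LCR rats, and both of its probe sets were called at a difference of 0.41. Baalc, Chrna1, Col18a1 and LOC102549347, a locus with no gene name (0.41), were called higher in all 7 alternatives and with every sedentary array left out, HCR rat 5 included.

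Clec3b, which encodes tetranectin, a plasminogen-binding protein, was the gene of largest difference among the matrix genes. It measured 5.85, 6.13, 6.07 and 6.52 in HCR and 7.72, 7.43, 7.78 and 7.63 in LCR (−1.49 ± 0.26, adjusted p = 0.0139). No HCR rat reached the lowest LCR rat, and a second, dimmer probe set was also called (−0.79). Without HCR rat 5 the gene was still called (−1.47, adjusted p = 0.0468), and it was called in 7 of the 8 fits that left out 1 sedentary array. Amd1, adenosylmethionine decarboxylase, which supplies the aminopropyl groups for polyamine synthesis, was measured at 9.47, 9.12, 9.44 and 9.56 in HCR and 10.41, 10.19, 10.44 and 10.76 in LCR. Every HCR rat was below every LCR rat, with a difference of −1.05 ± 0.17 (adjusted p = 0.0128, and 0.035 without HCR rat 5). Amd1 too was called in 7 of the 8 fits that left out 1 sedentary array. It was the only called gene of 19 measured in polyamine and methionine metabolism, whose median was −0.10 (−0.08 after quantile normalization, 0.04 when arrays were scaled to 1 interquartile range).

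Map1a and Klc1 act along microtubules, the first as a stabilising protein and the second as a light chain of the motor kinesin. Map1a was measured at 8.08, 7.92, 8.00 and 8.08 in HCR and 9.14, 9.31, 8.93 and 9.56 in LCR. The gap between the lines was wider than the range within either (−1.22, adjusted p = 0.00974). Klc1 was measured at 8.11, 7.40, 7.27 and 7.34 in HCR and 8.27, 9.03, 8.48 and 9.0 in LCR (−1.16, adjusted p = 0.00994). HCR rat 3 came close to LCR rat 2 here, and the gene's brightest probe set gave −0.29 and was not called. Pfkfb2, the heart form of the kinase that makes fructose 2,6-bisphosphate and so drives glycolysis, was measured at 5.98, 5.83, 5.81 and 5.77 in HCR and 6.68, 6.89, 7.00 and 6.69 in LCR. The lines were apart by −0.97 (adjusted p = 0.00577) with no overlap, while its 3 dimmer probe sets gave 0.16, 0.15 and −0.16 and were not called.

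Among the smallest p-values of named genes were those of Wipf3, Mmaa and Cand2. Wipf3, a partner of the actin regulator WASP, was measured at 9.82, 9.77, 9.62 and 9.65 in HCR and 10.42, 10.38, 10.20 and 10.43 in LCR (−0.64 ± 0.08, adjusted p = 0.00254). Mmaa, which protects the cobalamin-dependent methylmalonyl-CoA mutase, was measured at 6.01, 5.86, 5.73 and 5.85 in HCR and 6.41, 6.45, 6.46 and 6.58 in LCR (adjusted p = 0.00254). Cand2, a muscle-enriched exchange factor of cullin ubiquitin ligases, had 8.64, 8.64, 8.62 and 8.75 against 9.05, 9.17, 9.18 and 9.28 (−0.51 ± 0.06, adjusted p = 0.00343). In each of these genes all 4 HCR rats lay below all 4 LCR rats. The 3 genes, with Map1a, Klc1, Pfkfb2, Iqub (−0.74), Dgkz, a diacylglycerol kinase (−0.66), Fkbp2 (−0.52), Mcts2 (−0.51), Atosa (−0.46) and Sltm (−0.45), were called lower in all 7 alternatives and with every sedentary array left out, HCR rat 5 included. The brightest probe set of Fkbp2 gave −0.23 and its dimmest 0.21, and neither was called.

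**Figure D3:**
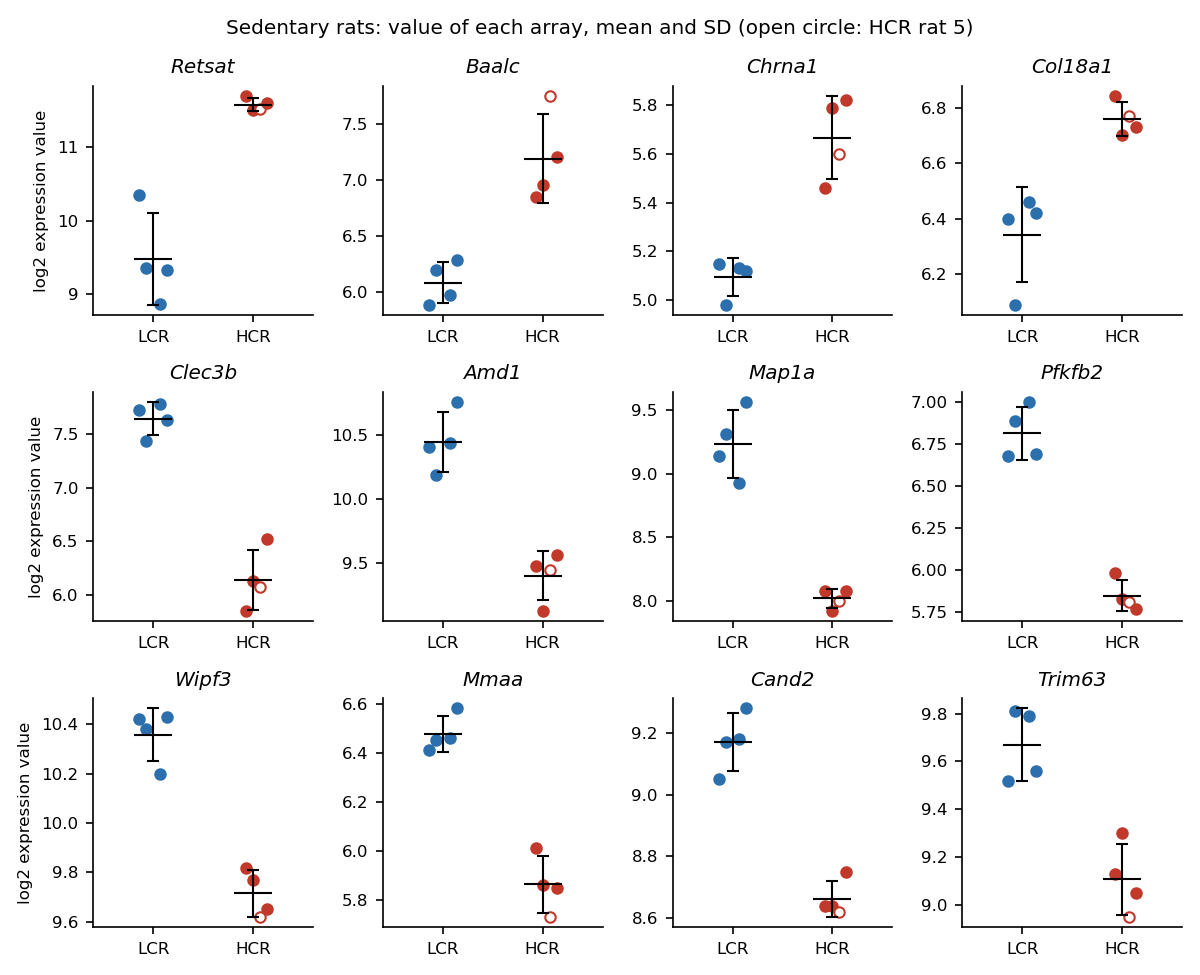
Values of 12 genes in the 8 sedentary rats, on the deposited log2 scale. Each point is 1 rat and black marks are the group mean and SD (n = 4), with HCR rat 5 drawn as an open circle; in Retsat, Baalc, Chrna1 and Col18a1 all HCR rats lie above all LCR rats, and in the remaining 8 genes all lie below.

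Genes of RNA splicing mostly had lower means in HCR. Of 90 measured splicing factors, 16 were called lower and none higher, beside 4.78% of all genes called lower, and 84 had a negative difference. After quantile normalization 2 splicing factors were called lower, and without HCR rat 5 none was in either direction. The list's median was −0.16 against −0.02 for all genes and −0.08 for the genes with a probe set at or above the median brightness, where 87 of the 90 lie; it was −0.05 after quantile normalization and −0.04 after scaling. Hnrnpu, a nuclear scaffold protein that binds pre-mRNA, measured 7.33, 7.41, 7.14 and 7.08 in HCR and 7.84, 7.99, 8.07 and 8.07 in LCR (−0.75 ± 0.16, adjusted p = 0.0244). These values do not overlap, but its brighter probe sets gave −0.32 and 0.04 and were not called. Hnrnpa1, a repressor of splice sites, was lower by a difference of −0.46, Clk1, a kinase of SR splicing proteins, by −0.49 and Tra2a, a splicing activator, by −0.53. The brightest probe set of Hnrnpa1 gave −0.15 and its dimmest 0.16, and neither was called. Tra2a overlapped between the lines at HCR rat 3 (7.31) and LCR rat 3 (7.28). Of the 31 genes of RNA decay, 4 were called lower and 2 higher. After quantile normalization none was called lower and 2 higher, and without HCR rat 5 none was called in either direction. Those lower in the deposited values were Exosc7, a subunit of the RNA exosome (−0.44), Pan2, a deadenylase (−0.45), Upf3b of nonsense-mediated decay (−0.35) and Tnrc6a, a partner of Argonaute (−0.32). Without HCR rat 5 the adjusted p of the 8 genes named here lay between 0.073 and 0.13.

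Of 106 genes that express the mitochondrial genome 13 were called lower and none higher, beside 4.78% and 2.55% of all genes. The median of the 106 was −0.15, against −0.08 for the 9488 genes with a probe set at or above the median brightness. After quantile normalization none of the 106 was called and without HCR rat 5 only 2 were, both lower. Of 46 proteins of the mitochondrial ribosome's large subunit 4 were called lower and none higher, and of 29 of the small subunit 3 were. In each the median was −0.15. Mrps6 measured 9.69, 9.48, 9.30 and 9.55 in HCR and 9.78, 9.76, 9.88 and 9.94 in LCR (−0.34 ± 0.07, adjusted p = 0.0244). Its groups were separated by less than 0.1. Mrpl49 (−0.30), Mrps28 (−0.29), Mrpl27 (−0.25), Mrps22 (−0.23), Mrpl33 (−0.23) and Mrpl58 (−0.19) were lower by smaller amounts. These genes are bright: their medians were −0.03 for the large and −0.04 for the small subunit after quantile normalization, and 0.06 and 0.04, the opposite direction, when arrays were scaled to 1 interquartile range.

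All 10 measured genes of mitochondrial transcription and DNA maintenance had a negative difference, and 3 were called lower, beside 4.78% of all genes. Tfb2m, a factor that melts the mitochondrial promoter, measured 8.84, 8.51, 8.97 and 9.08 in HCR and 9.25, 9.40, 9.33 and 9.32 in LCR (−0.48 ± 0.10, adjusted p = 0.0233). Rat 4 of the HCR line was the lowest, and no HCR rat reached an LCR rat. Tfam, which packages mitochondrial DNA and bends its promoters, measured 8.96, 8.75, 8.76 and 8.93 in HCR and 9.12, 9.11, 9.11 and 9.17 in LCR (−0.27 ± 0.07, adjusted p = 0.0404). Twnk, the mitochondrial DNA helicase, was lower by a difference of −0.32 at 1 probe set, while its brighter probe set gave −0.03. The list's median was −0.14, and kept its sign after quantile normalization (−0.05) and scaling (−0.06). Hars2 (−0.33) and Nars2 (−0.41) were called among 13 mitochondrial tRNA synthetases and Mtif2, a translation initiation factor (−0.42), among 8 factors. None of 34 complex I subunits and none of 45 subunits and assembly factors of complexes III to V was called in either direction. Their medians were −0.04 and −0.03, and turned to 0.35 and 0.41 on scaling.

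**Figure D4:**
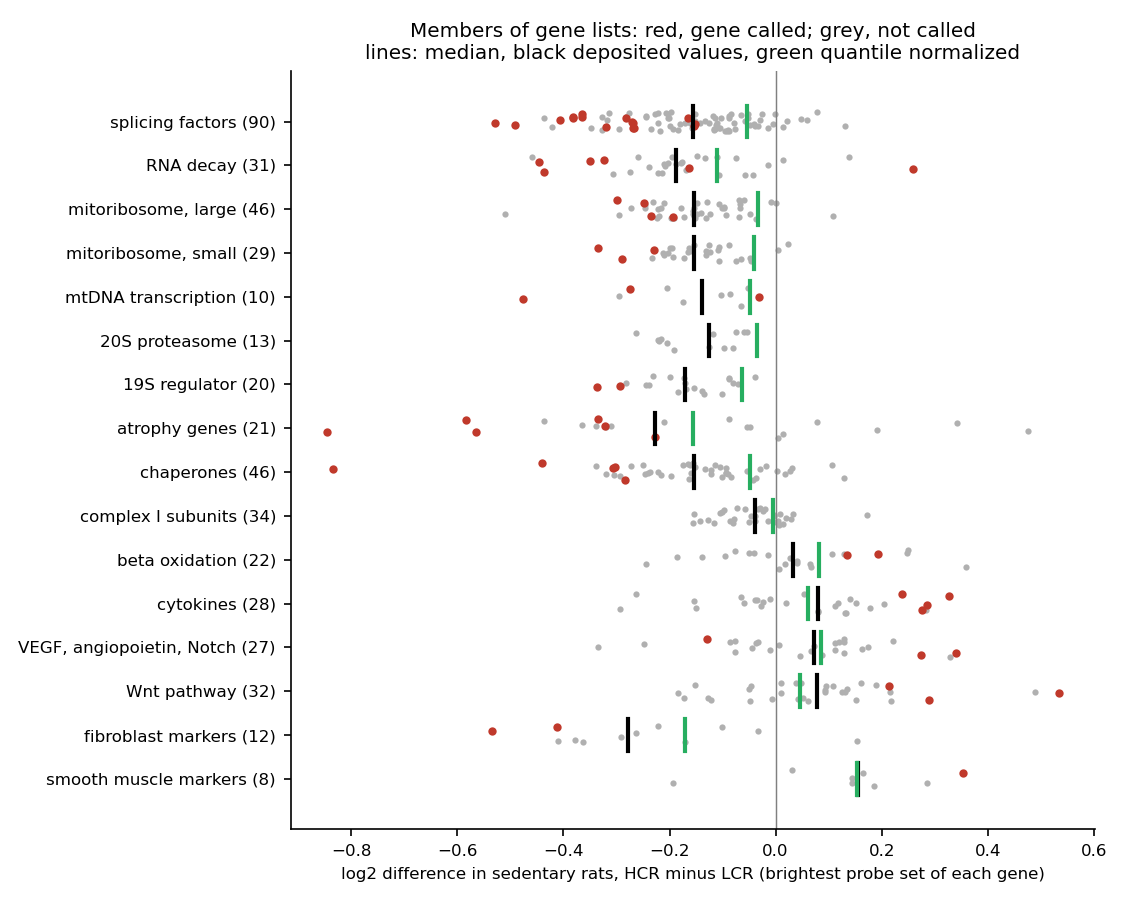
Line differences of the members of the described gene lists, each point 1 gene at its brightest probe set on the log2 HCR minus LCR scale. Red points are genes with any called probe set, and black and green bars mark medians of the deposited and the quantile normalized values; in the deposited values splicing (−0.16) and the mitochondrial ribosome (−0.15) lie below the median of all genes (−0.02), and Wnt genes (0.08) above it.

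All 42 measured proteasome genes had a negative difference, with a median of −0.17 against −0.08 for all bright genes. Of these 3 were called (7.14%, near the 7.33% of all genes): Psmc6 (−0.40) and Psmd9 (−0.29) of the 19S regulatory particle and Psme4, an activator (−0.32). The median was −0.06 after quantile normalization and 0.06, turned in sign, after scaling; 1 proteasome gene was called lower after quantile normalization and none without HCR rat 5. Of 21 genes of the muscle atrophy programme, 6 were called lower and none higher, beside 4.78% and 2.55% of all genes, with a median of −0.23 (−0.16 after quantile normalization, −0.12 after scaling). After quantile normalization 2 of the 21 were called, and without HCR rat 5 none. This list holds Trim63, Foxo3 and Ddit4, already singled out in earlier work on these data, so its count is not independent evidence.

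Trim63, the ligase MuRF1 that tags sarcomere proteins, measured 9.13, 9.30, 8.95 and 9.05 in HCR and 9.52, 9.81, 9.79 and 9.56 in LCR (−0.56 ± 0.11, adjusted p = 0.0233; 0.0756 without HCR rat 5). Its groups did not overlap, and its promoter is the one above with adjoining glucocorticoid receptor and FOXO motifs. Any part of these motifs, of glucocorticoids or of FOXO factors in the differences given here was not tested. Klf15, a transcription factor induced by glucocorticoids, measured 9.07, 9.34, 8.92 and 9.03 in HCR and 9.46, 9.92, 9.80 and 9.51 in LCR (−0.58 ± 0.12, adjusted p = 0.0261). A second probe set of Klf15 was called too (−0.47). Ddit4, a stress-induced inhibitor of mTORC1 and also a glucocorticoid target, measured 7.58, 7.26, 7.31 and 7.24 in HCR and 8.38, 7.86, 8.04 and 8.48 in LCR (−0.85 ± 0.16, adjusted p = 0.0201). In both genes each HCR rat lay below each LCR rat. Foxo3 was lower by a difference of −0.32 (adjusted p = 0.0484), its dimmer probe sets giving 0.08 and 0.17, and Nedd4l by −0.33.

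Of 43 other ubiquitin genes 7 were called lower and none higher, beside 4.78% and 2.55% of all genes. The list is bright, with 42 of the 43 at or above the median brightness, where lower calls outnumbered higher ones. After quantile normalization 2 of the 43 were called lower and without HCR rat 5 1 was. Their median was −0.12 (−0.03 after quantile normalization, 0.05 after scaling). The 7 called in the deposited values included Cand2, Uchl5, a deubiquitinase of the proteasome (−0.36), Ube3a (−0.31) and Usp7 (−0.30), whose other bright probe sets gave 0.03 and −0.04. The 2 brighter probe sets of Ube3a gave −0.10 and −0.20 and were not called. Chaperones had 5 of 46 called lower, beside the same 4.78% of all genes, with 1 after quantile normalization and 2 without HCR rat 5. Dnaja3, a mitochondrial Hsp70 partner, measured 7.68, 7.83, 8.41 and 7.83 in HCR and 9.0, 8.82, 8.44 and 8.82 in LCR (−0.83 ± 0.18, adjusted p = 0.0264). HCR rat 5 and LCR rat 5 nearly met, and without HCR rat 5 the difference was −0.99 (adjusted p = 0.034). Bag3, the cochaperone that clears damaged Z-disc proteins, was lower by a difference of −0.31 (adjusted p = 0.0157), Hspb3 by −0.44 and Bag2 by −0.30. The direction of Bag3 turned to 0.03 when arrays were scaled, and the median of the chaperones from −0.15 to 0.05.

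Fatty acid uptake and oxidation had 3 of 45 genes called higher and none lower (6.67%, near the 7.33% of all genes), with a median of 0.03 (0.07 after quantile normalization, 0.35 after scaling). As many, 3, were called higher after quantile normalization and none without HCR rat 5. Cpt1a, which commits fatty acids to mitochondrial import, measured 7.58, 7.38, 7.33 and 7.20 in HCR and 6.92, 7.12, 6.96 and 7.01 in LCR (0.37 ± 0.09, adjusted p = 0.0308). All HCR rats were above all LCR rats, and its brighter probe set gave 0.23 without a call. Eci1, an isomerase for unsaturated fatty acids, was higher by 0.38 and Acot2, a mitochondrial thioesterase, by 0.33, each at its dimmest probe set. In sterol synthesis Idi1, an isomerase of isoprene units, was lower (−0.57), as was Acaca, the carboxylase that makes malonyl-CoA (−0.37). Vldlr, a receptor for triglyceride-rich lipoproteins, was higher at 2 probe sets (0.31 and 0.31) while its brightest gave −0.31 and was not called. Tafazzin, which remodels cardiolipin, was lower at 8.17, 8.16, 8.18 and 8.24 against 8.39, 8.45, 8.35 and 8.50 (−0.23 ± 0.05, adjusted p = 0.0261). The difference was small and the rats of each line were close together; it was −0.11 after quantile normalization and no longer called. Pdp1, the phosphatase that activates pyruvate dehydrogenase, was lower by a difference of −0.36, and Ckb, brain creatine kinase, by −0.48. In nucleotide metabolism Hprt1 (−0.28) and Adsl (−0.19) were lower and Ak4 (0.27) and Nt5dc1 (0.89) higher, although the brightest probe set of Ak4 gave −0.17 and was not called. Hprt1 turned to 0.06 on scaling.

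Mitochondrial sulfide oxidation had 2 of 7 genes called lower, beside 4.78% of all genes. Neither was called after quantile normalization or without HCR rat 5. Sqor, sulfide:quinone oxidoreductase, the entry step, measured 7.74, 7.86, 7.97 and 8.31 in HCR and 8.24, 8.93, 8.59 and 8.83 in LCR (−0.68 ± 0.15, adjusted p = 0.0275). HCR rat 6 exceeded LCR rat 2, so the groups overlapped. Mpst, a sulfurtransferase, was lower by a difference of −0.25 and Nfs1, the desulfurase that supplies iron-sulfur clusters, by −0.23. Akr1b10, an aldo-keto reductase and one of 36 listed Nrf2 targets, measured 6.57, 6.42, 6.46 and 6.60 in HCR and 7.43, 7.36, 7.51 and 7.38 in LCR (−0.91 ± 0.21, adjusted p = 0.0308). Its groups were apart by more than 0.7, and its second probe set gave 0.04. Hpd, an enzyme of tyrosine breakdown, was lower by a difference of −0.83.

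Sarcomere genes were measured near the top of the scale. Myl2, ventricular myosin light chain, had a brightest probe set at a mean of 14.30 with a difference of 0.01; a dimmer probe set was called lower (−0.51). Pdlim3, a Z-disc protein binding alpha-actinin, measured 9.31, 9.24, 9.36 and 9.57 in HCR and 9.99, 9.81, 10.00 and 10.05 in LCR (−0.59 ± 0.11, adjusted p = 0.0194). The lines did not overlap. Ldb3 was lower at 1 of its dimmer probe sets (−0.35), the 4 brighter ones lying from −0.18 to 0.20 with no call. Irx4, a transcription factor restricted to the ventricle, measured 8.54, 8.10, 8.27 and 7.99 in HCR and 8.58, 8.92, 8.66 and 9.04 in LCR (−0.58 ± 0.12, adjusted p = 0.0229). HCR rat 3 came within 0.1 of LCR rat 2. Cardiac transcription factors had 2 of 32 called higher and 2 lower, beside 2.55% and 4.78% of all genes. Mef2b (0.30) and Nr2f2 (0.21) were higher, and Meis1 (−0.25) was lower beside Irx4. Nr2f2 was called at its dimmest probe set, and its brighter ones gave 0.18 and 0.30 without a call. None of the 32 was called after quantile normalization or without HCR rat 5. Without that rat no sarcomere gene of 57 was called in either direction.

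Calcium and potassium genes went both ways. Beside 2.55% and 4.78% of all genes, 2 of 36 calcium genes were called higher and 2 lower. Among 21 potassium genes 2 were called higher and 1 lower. No gene of either group was called without HCR rat 5. The values of S100a1 and Camk2d given here were not called after quantile normalization (adjusted p = 0.155 and 0.0909). S100a1, which enhances calcium release and uptake by the sarcoplasmic reticulum, was lower at 9.02, 9.19, 9.01 and 9.15 against 9.37, 9.53, 9.42 and 9.59 (−0.38 ± 0.09, adjusted p = 0.0323). Camk2d, the main cardiac calmodulin kinase, was lower by a difference of −0.26 and its relative Camk2g higher by 0.22. Both groups of S100a1 were tight and separate; Camk2d turned to 0.02 on scaling. Ppp3r1, the regulatory subunit of calcineurin, was higher at a dim probe set (0.33) while its brightest gave −0.04. Kcnj3, a subunit of the acetylcholine-activated potassium channel, measured 7.63, 7.79, 7.71 and 7.64 in HCR and 7.21, 7.20, 7.42 and 7.25 in LCR (0.42 ± 0.09, adjusted p = 0.0256). All HCR rats were above all LCR rats. Kcnd2, of the transient outward current, was higher (0.29) and Kcnj11, the pore of the ATP-sensitive channel, lower (−0.26). Sphkap, an anchor of protein kinase A, measured 8.94, 8.68, 9.05 and 8.67 in HCR and 9.26, 10.03, 10.17 and 10.42 in LCR (−1.14 ± 0.24, adjusted p = 0.0261). The LCR rats spread over more than 1 unit but stayed above HCR, and a second probe set was called (−0.59). Pde1c, a calcium-activated phosphodiesterase, was higher by 0.27, and Npr3, the clearance receptor for natriuretic peptides, by 0.33.

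Of 18 genes of IGF and insulin signalling 1 was called higher and 1 lower, with a median of −0.00; the same numbers were called after quantile normalization, and none without HCR rat 5. Igf2, a fetal growth factor, measured 8.31, 8.45, 8.33 and 8.36 in HCR and 7.97, 7.60, 7.88 and 7.78 in LCR (0.56 ± 0.11, adjusted p = 0.0221). The lines did not overlap, and its 3 dimmer probe sets gave 0.02 to 0.12. Grb10, an adaptor that blunts insulin and IGF receptor signalling, was lower at 8.00, 7.98, 7.90 and 7.94 against 8.40, 8.59, 8.31 and 8.62 (−0.52 ± 0.09, adjusted p = 0.015). Pik3ip1, an inhibitor of PI3K, was lower at 8.61, 8.80, 8.48 and 8.66 against 8.94, 9.04, 9.18 and 9.03 (−0.41 ± 0.07, adjusted p = 0.0139). In both genes every HCR rat was below every LCR rat. Of 25 genes of PI3K, Akt and mTOR, 1 was called higher and 3 lower, beside 2.55% and 4.78% of all genes. The median of the 25 was −0.16 (−0.08 after quantile normalization, −0.02 after scaling). Without HCR rat 5 1 was called higher and 1 lower. Pik3r1, a regulatory subunit, was the higher one (0.86), with HCR rat 5 (6.62) below LCR rat 2 (6.85). Pik3ca, the catalytic subunit (−0.27), and Rictor of mTORC2 (−0.42) were lower. Among ligands Fgf1 (−0.47) and Pdgfa (−0.43) were lower and Nrg1, a survival factor from cardiac endothelium, higher (0.30), and all 8 probe sets of Nrg1 had a positive difference.

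Matrix genes were called in both directions, 3 of 119 higher and 4 lower (5.88%, near the 7.33% of all genes). The counts were 4 higher and 1 lower after quantile normalization, and 2 higher and 2 lower without HCR rat 5. In the matrix, Fbln1 (−0.54) and Lum (−0.41) were lower beside Clec3b, and Adam8 (0.37), a membrane protease, and Mmp2 (0.35), a gelatinase, were higher; the brightest probe set of Mmp2 gave −0.10 without a call. Of 12 fibroblast markers 11 had a negative difference (median −0.28, −0.17 after quantile normalization), and Fbln1 and Lum are 2 of them. The summed fibroblast marker level lay from −0.19 to −0.007 in HCR and from 0.043 to 0.209 in LCR around its mean, and its part in the matrix differences was not tested. VEGF and Notch genes had 3 of 27 called higher and none lower, beside 2.55% and 4.78% of all genes. After quantile normalization 1 of the 27 was called higher, and without HCR rat 5 none was. Notch3, the receptor of vascular smooth muscle and pericytes, measured 6.53, 6.67, 6.68 and 6.72 in HCR and 6.17, 6.36, 6.33 and 6.39 in LCR (0.34 ± 0.08, adjusted p = 0.036). Heyl, a Notch target, was higher by 0.24 and Pgf, placental growth factor, by 0.28. Notch3 separated the lines without overlap, while the brightest probe set of Heyl gave −0.13. Of 8 smooth muscle markers 7 had a positive difference (median 0.16) and 1 was called, Acta2 (0.35). Their summed level overlapped between the lines, from −0.075 to 0.162 in HCR and −0.159 to 0.04 in LCR, and its part in these differences was not tested. In Wnt signalling 3 of 32 were called higher and none lower, beside the same shares of all genes (1 after quantile normalization, none without HCR rat 5). The 3 were the receptor Fzd5 (0.29), the modulator Sfrp2 (0.32) and the repressor Tcf7l1 (0.21). Tgfb3 was lower (−0.36).

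Motor, vesicle and chromatin genes included several large single differences. Of 37 motor genes 6 were called lower and 2 higher, beside 4.78% and 2.55% of all genes. After quantile normalization 3 motor genes were called lower, and without HCR rat 5 1 was. The motor genes called in the deposited values include Klc1 and Myo5b, already singled out in earlier work on these data, so their count is not independent evidence. Myo5b, a recycling endosome motor, was higher (0.64) and Myo6 (−0.45) and Kif21a (−0.49) lower. Rims1, a scaffold of vesicle release sites, measured 6.15, 5.56, 5.50 and 5.95 in HCR and 4.95, 4.90, 5.27 and 5.03 in LCR (0.75 ± 0.13, adjusted p = 0.0139). The groups did not overlap, and the gene stayed called without HCR rat 5 (0.85, adjusted p = 0.021). It was called in 7 of the 8 fits that left out 1 sedentary array. Mapt, the microtubule protein tau, was lower by a difference of −0.29. Of 79 genes listed as histone modifiers 8 were called lower and 2 higher, beside the same shares of all genes (1 and 1 after quantile normalization, none without HCR rat 5). The 8 include Nap1l5, also singled out in that earlier work. Kmt2c (−0.50) and Crebbp (−0.57) were lower and Kdm5a (0.42) higher. Nap1l5 (−1.28), by its name a nucleosome assembly protein rather than a modifying enzyme, was lower. The brightest probe set of Kdm5a gave −0.14, the 2 brighter ones of Crebbp −0.17 and −0.30 and the second of Kmt2c 0.29, none of them called. Nap1l5 measured 7.67, 7.16, 7.21 and 9.32 in LCR, so that rat 6 carried much of its difference from HCR values of 6.58, 6.64, 6.26 and 6.75.

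Among cytokine genes 4 of 28 were called higher and none lower, and among chemokine genes 2 of 25 were called higher and none lower, beside 2.55% and 4.78% of all genes. After quantile normalization 3 cytokine genes and no chemokine gene were called, and without HCR rat 5 none of either group in either direction. Csf1, the macrophage growth factor, measured 9.24, 9.56, 9.44 and 9.33 in HCR and 9.12, 9.09, 9.10 and 8.96 in LCR (0.33 ± 0.07, adjusted p = 0.0267), with a second probe set called (0.27). Every HCR rat was above every LCR rat. Il33 (0.28), Lifr (0.28), Socs1 (0.24), Ccl11 (0.23) and Cx3cr1 (0.29) were also higher. The median of cytokine genes was 0.08, and 0.06 after quantile normalization. Aif1, a macrophage protein, was higher (0.40), but only 5 of 11 macrophage markers had a positive difference (median −0.00). Irf3, which switches on type I interferon, was lower (−0.43, adjusted p = 0.015) and Ifnar2, an interferon receptor chain, higher (0.68), its brighter probe set giving −0.22. Ciita, the master activator of MHC class II, was higher by 0.27. Klrd1, a natural killer cell receptor, measured 5.08, 4.95, 5.26 and 4.85 in HCR and 6.43, 5.28, 5.96 and 5.82 in LCR (−0.84 ± 0.19, adjusted p = 0.0291). Only 0.02 separated HCR rat 5 from LCR rat 3.

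Of 12 cardiomyocyte markers 1 was called (8.33%, near the 7.33% of all genes), Myl2 at its dimmer probe set, and the list's median was −0.01. None of 11 endothelial, 9 white adipocyte, 11 skeletal muscle or 7 atrial myocyte markers was called in either direction, with medians of 0.01, 0.14, 0.00 and 0.04. Schwann cell and neuron markers had 12 of 15 with a positive difference and 1 call (6.67%), Chl1, a neural adhesion molecule (0.37 ± 0.06, adjusted p = 0.0139). These markers are dim (median level 5.59), a range where differences leaned positive, and their median was 0.13 (0.06 after quantile normalization). Of 19 clock genes 1 was called (5.26%), Bhlhe41 (−0.39), and the median was −0.17 (−0.08 after quantile normalization).

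Other named genes of large difference were Lhfpl2 (0.59), Ppm1l, a phosphatase of stress kinases (0.61), Fndc4 (0.57), Ighl2 (0.57), Epha4, an ephrin receptor (0.56), Stk24 (0.52) and Ackr4, a scavenging chemokine receptor (0.48), all higher in HCR. Dpy19l4 (−1.04) and Lysmd4 (−1.56) were lower. The Lysmd4 values of 7.60, 6.36, 6.63 and 4.77 in HCR against 7.95, 7.77, 7.88 and 8.00 in LCR were tight in LCR and spread over nearly 3 units in HCR, and its other 3 probe sets gave 0.20 to 0.98. Of the 1042 called genes 470 had more than 1 probe set; all had the same sign in 250 of them (53.2%), beside 50.1% of all 4525 such genes, and 32 had 2 or more called. Along the chromosomes 140 of the 1042 called genes (13.4%) had a called neighbour, beside 14.1% of all, and the 1 run of 3 was Nfs1, Romo1 and Rbm39, chosen after its values were seen. A further 473 called probe sets had no single gene symbol. Among them, probe set 1374583_at had the smallest p-value of the table, with 6.60, 6.64, 6.37 and 6.51 in HCR and 7.79, 7.94, 7.72 and 8.00 in LCR (−1.33 ± 0.10, adjusted p = 9.485e-06). Probe set 1370428_x_at, listed with several symbols, had the largest difference, with 4.45, 4.60, 4.58 and 4.55 against 11.06, 8.65, 10.68 and 10.27 (−5.62 ± 0.83, adjusted p = 0.00896). In both the lines stood apart in all 8 rats. These 2 were singled out after their values were seen.

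The same contrast in trained rats, which shares no sample with the sedentary one, called 30 probe sets (0.0966%), of which 20 were also called in sedentary rats, all in the same direction. Both contrasts came from 1 fit and shared its estimate of the spread of each probe set, so the 2 sets of calls are not independent. The sign in trained rats matched that in sedentary rats for 505 of 623 probe sets called higher (81.1%) and 772 of 926 called lower (83.4%), beside 61.7% and 61.9% of all probe sets with a positive or negative difference. The median difference of the same probe sets was 0.28 in sedentary and 0.06 in trained rats for those called higher, and −0.35 and −0.10 for those called lower. The probe sets were chosen for their size in sedentary rats, so a smaller median in other rats is not by itself an effect of training. Retsat (1.93), Baalc (1.27), Amd1 (−0.95), Akr1b10 (−1.19), Sqor (−0.92), Dpy19l4 (−1.15), Cand2 (−0.43), Bag3 (−0.31) and Acot2 (0.51) were called in trained rats. Trim63 (−0.06), Klf15 (0.07), Igf2 (−0.08), Pik3ip1 (0.10), Irf3 (−0.00), Mmaa (−0.05), Iqub (−0.11) and Dgkz (−0.08) lay near 0 there and were not called. Camk2d (0.14) and Paqr6, a progestin receptor (0.29 against −0.41 in sedentary rats), had the opposite sign. The test of the difference itself, the interaction of line and training, called none of the 31042 probe sets (smallest adjusted p = 0.251; 3068, or 9.88%, at an unadjusted p under 0.05), so no gene's line difference was shown to depend on training.

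**Figure D5:**
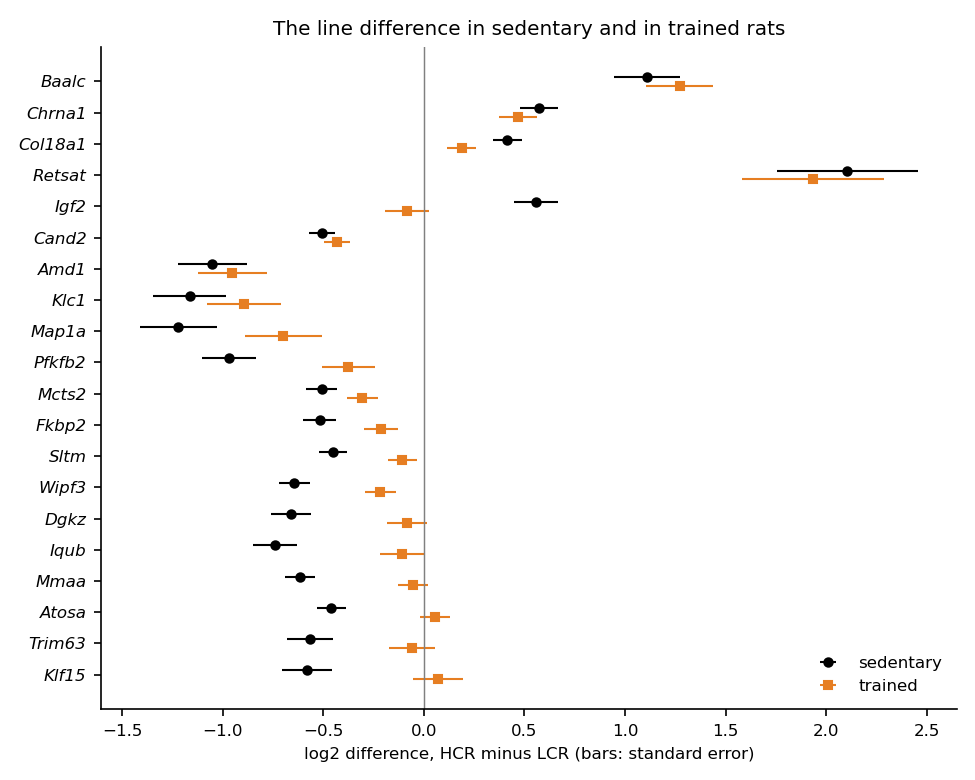
HCR minus LCR log2 differences of 20 genes in sedentary and in trained rats, with standard errors from the limma fit. Retsat (2.11 and 1.93) and Baalc (1.11 and 1.27) lie far from 0 in both, and Trim63 (−0.56 and −0.06) and Igf2 (0.56 and −0.08) lie near 0 in trained rats; the interaction was called for no gene.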

How the data were processed

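The 16 arrays carried total RNA of 1 rat each; 8 enter the comparison. Values were summarised by RMA, per the submitters' processing notes (no version is given there), and are the deposited log2 values; the log base is taken from their range of 3.24 to 14.54. RMA usually ends with quantile normalization, yet the deposited distributions differ between arrays, so a further quantile step was run as an alternative. Of 31099 probe sets 57 controls were left out; 20826 had 1 gene symbol in the platform annotation, 436 several and 9780 were not listed. limma 3.58.1 in R 4.3.3 fitted 1 mean per group over all 16 arrays (12 residual degrees of freedom), two-sided, with Benjamini-Hochberg adjustment over 31042 probe sets. On simulated data of this size (31042 probe sets) the fit recovered 99% of 1.5-fold and 98% of 2-fold changes, and 7.08% of its calls were false. The simulated errors were independent between probe sets, with no array-wide shift between groups, so these rates need not hold for the deposited values. No 2 arrays were identical. The labels do not say how the rats relate to each other (litter or batch), so the p-values measure the spread between these rats, and 4 arrays a group limit the precision. The members and the 54 gene lists (2428 of 2691 listed genes measured; 1 brightest probe set per gene, called if any of its probe sets was) were chosen with earlier results of these data known. Genes were named by size among called genes without overlap (up to 15 per direction), by size within each list role (up to 4), by being called throughout (up to 12 per direction), by earlier mention or by the interaction (up to 3 per direction). Summed marker levels are means of each marker's deviation from its mean over the 8 rats. Promoters are RefSeq's (GRCr8). Alternatives were normalization, filtering, fits with sedentary arrays alone, a trend, array weights, a replicate block and each array left out; quantile normalization without HCR rat 5 was added after seeing the data.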

Additional observations from a re-analysis of the deposited data

Results flagged for a closer look

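Some values lay apart from the other 3 rats of their group by Dixon's test at 95%, in 13 of 342 groups of 4 rats examined; chance flags about 1 in 20. HCR rat 5 had Xist at 4.54 (9.08 to 9.87 in the other HCR rats), Hpd at 6.43 (7.07 to 7.17) and Rictor at 7.60 (7.73 to 7.75). HCR rat 3 had Klc1 at 8.11 (7.27 to 7.40), Pdp1 at 9.11 (8.79 to 8.82), Adam8 at 5.39 (5.47 to 5.49) and a mesothelial and epicardial marker level of −0.04 (0.019 to 0.03). HCR rat 6 had Cand2 at 8.75 (8.62 to 8.64), Acot2 at 7.23 (7.10 to 7.11) and Adsl at 9.01 (8.93 to 8.95). LCR rat 3 had Nt5dc1 at 4.28 (4.99 to 5.08). LCR rat 5 had a fast skeletal filament gene level of 0.822 (−0.236 to −0.171) and a skeletal muscle marker level of 0.537 (−0.177 to −0.112).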

How the results depend on the processing

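The 1549 calls in sedentary rats became 543 after quantile normalization, 2460 with arrays centred on their medians, 4183 with array quality weights, 3000 with the replicate number as a block and 50 after quantile normalization without HCR rat 5; they ranged from 35 to 1994 with 1 array left out. The labels do not say that equal numbers pair the rats. Over 3 shared numbers the correlation of deviations ran from −0.089 to 0.121, and 1 of 3 HCR rats correlated best with its own number. So few pairs cannot decide whether equal numbers share a batch. The calls in trained rats were 30, 11 with 1 probe set per gene, 20 with the replicate block and 12 to 53 with 1 array left out. The interaction called 0 under every setting run. Scaling to 1 interquartile range reversed Mrpl27 (0.036), Mrpl33 (0.10), Mrpl58 (0.038), Bag3 (0.027), Hprt1 (0.059) and Camk2d (0.025), and Xist, −0.77 with all arrays, ranged from −1.33 to 0.44 with 1 array left out, positive only without HCR rat 5; the cause was not tested. Of 143 called genes named, 60 were called after quantile normalization. Over all 147 genes and settings, 2551 of 3503 values kept their direction and side of the threshold, 944 lost the call, 1 gained it and 7 changed sign. Of 689 list medians 59 changed sign.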
